A study of Ambystoma mexicanum with 9 samples.

Results

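PMCH, NPY, SCG2 and SCG3 are genes of peptide-secreting cells, and the axolotl array measured them, 4 of its 8639 named genes, with 5 of its 20035 tested probe sets. A probe set is a group of short probes that together read out 1 transcript. The members were all probe sets that the array's annotation pairs with 1 of these 4 gene symbols, which gave 1 for PMCH, 2 for NPY, 1 for SCG2 and 1 for SCG3. The 4 genes were chosen by their measured log2 differences between the groups of these arrays, so those differences are given here as a description, with standard errors and no test.

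The 9 arrays came from axolotls, salamanders that regrow a cut spinal cord, in 3 groups of 3. The 0dpi group was uninjured cord tissue. It held more than cord, since muscle and epidermis markers there had mean log2 levels of 10.71 to 10.74 and 10.55 to 10.58. The paper describes its axolotl samples as a cord region with the cells and tissues around it. The 1dpi group was tissue of the injury site, collected 1 day post injury. The 1dpiT group was likewise collected 1 day post injury, after treatment with ivermectin, which holds open chloride channels gated by glycine and was used to depolarize cells. By the series text, ivermectin or water was pressed into the central canal just before a stretch of cord was cut out. The sample labels name the injury of 1dpi a crush and mention no injection for it, and for 1dpiT they mention the injection and no injury. Every array held the pooled tissue of 10 animals, each 2 to 3 cm long. No strain, sex or age is stated for them. Because whole tissue was pooled, fewer cells of a type and less RNA per cell cannot be told apart.

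Neuropeptides are short signalling molecules that neurons and endocrine cells cut from larger precursor proteins and store in dense-core vesicles, which they release when the cell is excited. PMCH encodes the precursor of melanin-concentrating hormone, known in mammals as a hypothalamic regulator of feeding and sleep and in fish as a hormone that pales the skin. NPY encodes neuropeptide Y, one of the most abundant peptides of the vertebrate nervous system. SCG2 and SCG3 encode secretogranins, acidic proteins of the granin family that are packed into dense-core vesicles. SCG2 is itself cut into peptides such as secretoneurin, and SCG3 binds other granins and helps to sort them into the vesicle.

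PMCH, SCG3 and 1 of the 2 NPY probe sets were high in 1dpi and low in 0dpi and 1dpiT, whereas the other NPY probe set and SCG2 stayed within a narrow range. Among all tested probe sets, 24.7% were called higher in 1dpi than in 0dpi and 25% were called lower in 1dpiT than in 1dpi, at an adjusted p below 0.05. The shares called the other way were 28.2% lower and 29% higher. A difference of at least 2-fold, which PMCH, SCG3 and that NPY probe set all passed in both comparisons, was reached by 3.61% of probe sets in the first and 3.87% in the second. All arrays of 1dpi lay above all of 0dpi in 28% of probe sets, and all of 1dpiT below all of 1dpi in 28.4%, as those of PMCH, SCG3 and the leading NPY probe set did. These shares are background to a choice that used the same contrasts, and nothing is read from the comparison. The 1dpi arrays also serve as the reference in the second comparison, so a high value in them enters both.

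**Figure D1:**
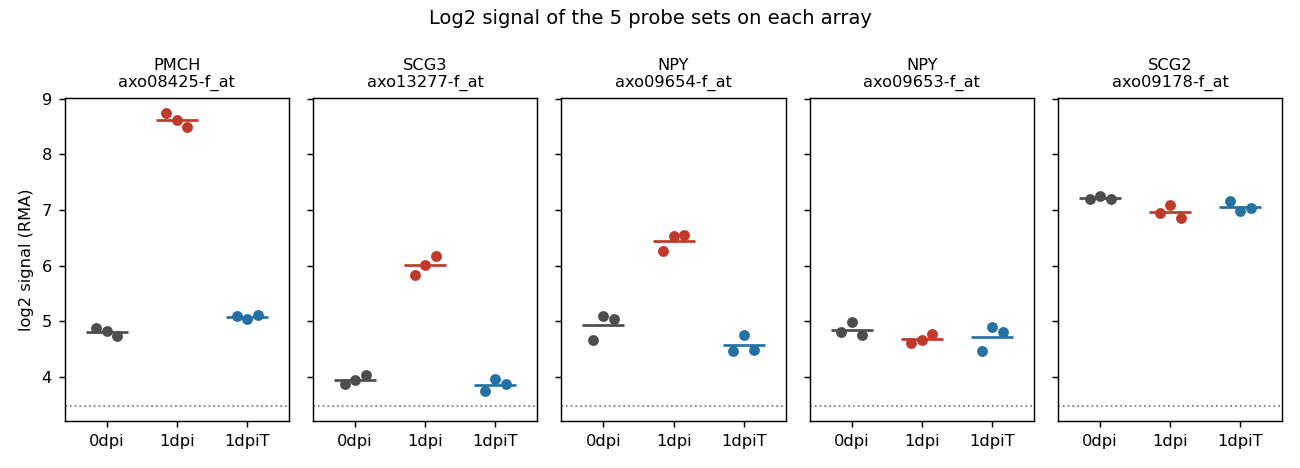
Log2 signal of the 5 probe sets of PMCH, SCG3, NPY (2 probe sets) and SCG2, by group on the x axis; each dot is 1 array (0dpi grey, 1dpi red, 1dpiT blue), each line is the group mean, and the dotted line marks 3.47, the brightest negative control (its mean over all arrays). PMCH, SCG3 and NPY probe set axo09654-f_at stand high in the 3 1dpi arrays, while the groups of NPY probe set axo09653-f_at overlap.

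PMCH (probe set axo08425-f_at) had log2 signals of 4.88, 4.82 and 4.73 in the 0dpi arrays. The 1dpi arrays read 8.75, 8.61 and 8.49. The 1dpiT arrays read 5.09, 5.04 and 5.12. All 3 arrays of 1dpi thus stood far above the other 6, and the 1dpiT arrays lay just above the 0dpi arrays with no overlap. The group means were 4.81 ± 0.08 (SD, n = 3) in 0dpi, 8.62 ± 0.13 in 1dpi and 5.08 ± 0.04 in 1dpiT. The log2 difference was 3.80 ± 0.07 (SE) between 1dpi and 0dpi, which is 14.0-fold and the 18th largest rise of all probe sets. From 1dpi to 1dpiT it was -3.53 ± 0.07, or 11.6-fold lower, the 37th largest fall. The small gap between 1dpiT and 0dpi had a log2 difference of 0.27 ± 0.07, or 1.21-fold, and 12.1% of all probe sets had every 1dpiT array above every 0dpi array. PMCH was the member with the largest difference in both directions.

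SCG3 (axo13277-f_at), the sorting granin, had log2 signals of 3.87, 3.94 and 4.04 in 0dpi. Its values were 5.84, 6.01 and 6.17 in 1dpi. In 1dpiT they were 3.74, 3.97 and 3.86. The 1dpi arrays again stood apart from all others, and those of 0dpi and 1dpiT overlapped. In 0dpi and 1dpiT the SCG3 signal was dim, with group means of 3.95 ± 0.09 and 3.86 ± 0.11 (SD, n = 3), which lay 0.47 and 0.38 above the brightest of the negative controls at 3.47. The 1dpi mean was 6.01 ± 0.17. The log2 difference between 1dpi and 0dpi was 2.06 ± 0.09 (SE), or 4.17-fold, and that between 1dpiT and 1dpi was -2.15 ± 0.09, or 4.44-fold lower. Ivermectin-treated and uninjured arrays differed by -0.09 ± 0.09. SCG3 had the 126th largest rise and the 135th largest fall.

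NPY was measured by 2 probe sets that gave different pictures. In axo09654-f_at, the brighter on average and therefore the one that stands for the gene, the 0dpi arrays read 4.67, 5.10 and 5.04 on the log2 scale. Its 1dpi arrays read 6.26, 6.54 and 6.56. Its 1dpiT arrays read 4.47, 4.75 and 4.48. Every 1dpi array was above every other array, and the 1dpiT and 0dpi arrays overlapped. The log2 difference was 1.51 ± 0.13 (SE), or 2.85-fold, between 1dpi and 0dpi, and -1.88 ± 0.13, or 3.69-fold lower, between 1dpiT and 1dpi. The 1dpiT mean was below the 0dpi mean by a log2 difference of -0.37 ± 0.13. These were the 279th largest rise and the 192nd largest fall.

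The other NPY probe set, axo09653-f_at, read 4.80, 4.99 and 4.76 in 0dpi. It read 4.60, 4.66 and 4.76 in 1dpi. It read 4.47, 4.89 and 4.80 in 1dpiT. All 3 groups overlapped, with log2 differences of -0.17 ± 0.11 (SE) between 1dpi and 0dpi and 0.05 ± 0.11 between 1dpiT and 1dpi. Taken within each array, the log2 value of axo09654-f_at minus that of axo09653-f_at averaged 0.09 ± 0.21 (SD, n = 3) in 0dpi, 1.77 ± 0.11 in 1dpi and -0.16 ± 0.16 in 1dpiT. Over the 9 arrays the values of the NPY pair had a Pearson r of -0.19, so they did not move together. Averaging the pair lowered the NPY log2 differences to 0.67 and -0.92. The high NPY level in 1dpi therefore rests on 1 of its 2 probe sets. The annotation does not say which stretch of the transcript each of them reads.

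SCG2 (axo09178-f_at), the source of secretoneurin, went the other way from SCG3 and by little. Its log2 signals were 7.20, 7.25 and 7.20 in 0dpi. They were 6.95, 7.10 and 6.86 in 1dpi. They were 7.15, 6.97 and 7.04 in 1dpiT. The 0dpi arrays were above all 6 others, and the 1dpi and 1dpiT arrays overlapped. The log2 difference was -0.25 ± 0.07 (SE), or 1.19-fold lower, in 1dpi against 0dpi. It was 0.09 ± 0.07 in 1dpiT against 1dpi and -0.16 ± 0.07 in 1dpiT against 0dpi. The gaps between the nearest arrays of the separated groups were 0.11 and 0.05 in log2 units. As background, 31.4% of all probe sets had every 1dpi array below every 0dpi array, and 10.9% had every 1dpiT array below them.

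The order of the group means was 1dpi, 1dpiT, 0dpi for PMCH, and 1dpi, 0dpi, 1dpiT for SCG3 and the leading NPY probe set. In the case of SCG2 it was 0dpi, 1dpiT, 1dpi. Neighbours whose arrays overlapped were 0dpi and 1dpiT for SCG3 and NPY, and 1dpiT and 1dpi for SCG2. The spread within groups (pooled SD) was 0.09 for PMCH and for SCG2, 0.13 for SCG3 and 0.19 and 0.15 for NPY probe sets axo09654-f_at and axo09653-f_at, against a median of 0.09 over all probe sets. Over the 9 arrays, PMCH and SCG3 had a Pearson r of 0.985, PMCH and the leading NPY probe set 0.945, NPY and SCG3 0.981, and PMCH and SCG2 -0.65. These values describe 3 groups of 3 arrays and mostly reflect the position of the 1dpi group.

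The scaling of the arrays touches all of these differences. Poly-A spike-ins are foreign transcripts put into each RNA sample ahead of labelling. They had a mean log2 signal of 7.54 ± 0.03 (SD, n = 3) in 0dpi, 8.08 ± 0.04 in 1dpi and 7.43 ± 0.05 in 1dpiT. With each array centred on those spike-ins, PMCH was still higher in 1dpi than in 0dpi by 3.26 in log2 units. SCG3 was higher by 1.51 and NPY, in its leading probe set, by 0.97. From 1dpi to 1dpiT the 3 genes were then lower by log2 differences of -2.89, -1.50 and -1.23. SCG2 went to -0.80 in 1dpi against 0dpi and to 0.73 in 1dpiT against 1dpi. The median of all probe sets moved with it, to -0.55 in 1dpi against 0dpi and 0.65 in 1dpiT against 1dpi, and relative to that median every gene keeps the difference it had. The directions of PMCH, SCG3 and the leading NPY probe set held under this scaling. The other NPY probe set, axo09653-f_at, went to -0.72 in 1dpi against 0dpi and to 0.70 in 1dpiT against 1dpi. The size of the SCG2 difference grew in these 2 comparisons, while in 1dpiT against 0dpi it shrank to -0.06. Whether the spike-in shift came from the amount of messenger RNA or from the amount of spike-in was not tested.

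The genes whose values over the 9 arrays lay nearest to a member were found by the root mean square difference of the centred log2 values. PMCH was nearest to C1QTNF3 (0.11 log2 units, r of 0.998), followed by TCEA2 (0.21), CSRP2 (0.22), ACTN2 (0.28) and FBN1 (0.30). Of these, ACTN2 encodes the actinin of the muscle Z-disc and FBN1 the matrix protein fibrillin. NPY was nearest to SORCS2 (0.11, r of 0.996), PTHLH (0.12), COL4A2 (0.14), ALAS2 (0.15) and HYI (0.15). Among them PTHLH is a peptide hormone precursor, COL4A2 a basement membrane collagen and ALAS2 the heme synthesis enzyme of red cells. SCG3 was nearest to PDLIM5 (0.10, r of 0.995), MYBPC2 (0.11), RPL27 (0.13), ATP6V1B2 (0.13) and COL1A1 (0.14). MYBPC2 is a myosin-binding protein of fast muscle, and COL1A1 is a collagen of connective tissue. SCG2, which moved little, was nearest to PRPF19 (0.06, r of 0.877), MED14, PPP1R15B, PHKG1 and CTNND1. All r values describe 9 arrays in 3 groups.

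Other peptide precursors were read from a list of 58, of which 25 were on the array. Relative to 0dpi, 18 of these 25 were called higher in 1dpi and 0 lower at an adjusted p below 0.05, beside 25.3% higher and 29.5% lower of all 8639 genes, and the median log2 difference was 0.58. At an unadjusted p below 0.05 in limma, 1 was lower. Of the 25, 3 had a mean over the 9 arrays at or below the negative control level of 3.47. Leaving out the dimmest 50% of probe sets, which also removed members of this list, gave 8 higher and 1 lower. Of all remaining probe sets 3203 were then higher. With the arrays centred on the poly-A spike-ins the calls were split, with 11 higher, 10 lower and a median of 0.03. Of all 20035 probe sets 1266 were higher and 16954 lower under that centring, with a median of -0.55. PENK, the precursor of the enkephalins, had log2 signals of 6.82, 6.97 and 6.79 in 0dpi, then 8.95, 8.91 and 8.97 in 1dpi, and 5.67, 5.58 and 5.90 in 1dpiT. PENK was therefore highest in 1dpi and lowest in 1dpiT, with no overlap between any groups. It rose by 2.08 ± 0.08 (SE) in 1dpi against 0dpi, with an adjusted p of 1.6e-08. TAC1, the precursor of substance P, rose by 1.94 ± 0.09, and ADCYAP1, the precursor of PACAP, by 1.50 ± 0.10. The parathyroid hormone-related peptide gene PTHLH rose by 1.50 ± 0.07. In all, 10 of the 25 were at least 2-fold higher, beside 276 of all 8639 genes. GNRH1, NMU, NMS, POMC, CARTPT, GAL and NUCB2 did not pass the test.

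**Figure D2:**
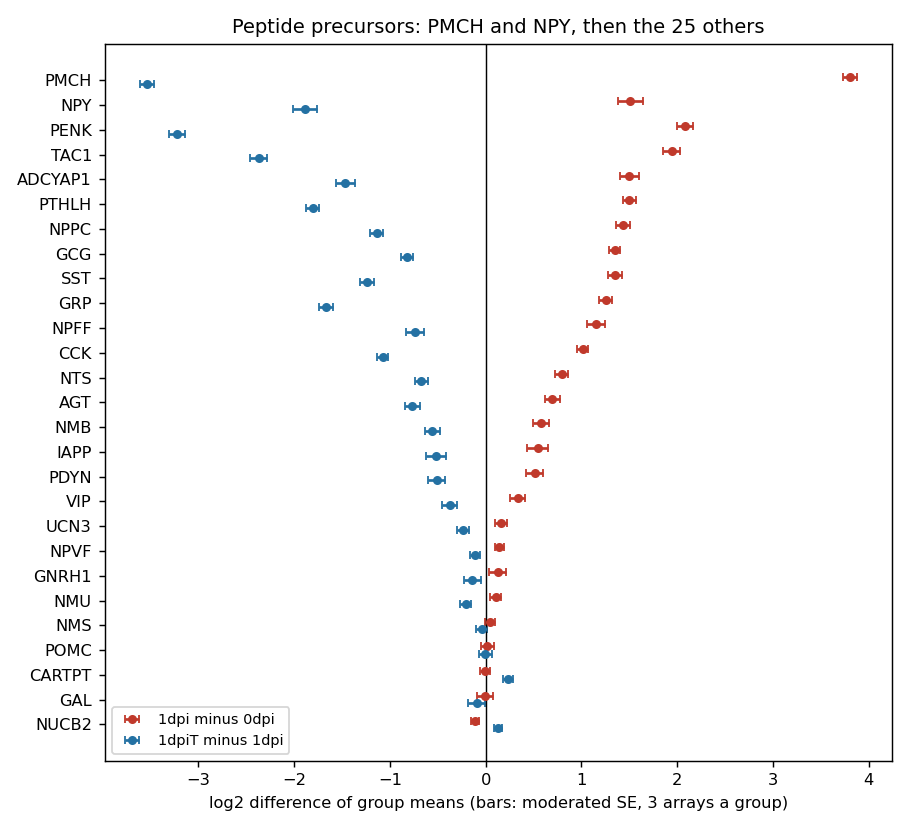
Log2 differences of PMCH and NPY and, after them, of 25 other peptide precursor genes; red is 1dpi minus 0dpi, blue is 1dpiT minus 1dpi, and bars are SE of the fit over 9 arrays. The 1dpi arrays enter both differences, and PMCH, chosen by these differences, is at 3.80 and -3.53. NPY is drawn from axo09654-f_at alone, the probe set that was high in 1dpi.

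In 1dpiT against 1dpi, 18 of the 25 peptide precursors were called lower and 2 higher, beside 26.1% lower and 30.4% higher of all genes, with a median log2 difference of -0.55. Under the spike-in centring the calls were split here too, with 9 lower, 10 higher and a median of 0.09. Of all 20035 probe sets 1122 were then lower and 17530 higher, with a median of 0.65. PENK had a log2 difference of -3.22 ± 0.08 (SE), TAC1 of -2.37 ± 0.09, PTHLH of -1.81 ± 0.07 and the gastrin-releasing peptide gene GRP of -1.66 ± 0.07. CARTPT and NUCB2 were the 2 called higher, by log2 differences of 0.23 and 0.13, and are named after their values were seen. The NUCB2 call was lost without 1dpi replicate 1 or 2 or without 1dpiT replicate 1 or 3, with adjusted p values of 0.0504 to 0.0741.

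Between 1dpiT and 0dpi, where 2.26% of all probe sets were called higher and 3.34% lower, 4 of the 25 peptide precursors were higher and 4 lower, with a median log2 difference of 0.01. PENK was lower by a log2 difference of -1.14 ± 0.08 (SE, adjusted p of 3.3e-05), so its level in 1dpiT was under that of uninjured tissue, whereas PMCH lay slightly above it and NPY and SCG3 overlapped with it. GRP was lower by -0.41, and GCG, the precursor of glucagon and its relatives, was higher by 0.53. The other calls were TAC1 and PTHLH (-0.43 and -0.30) and NPFF, NPPC and CARTPT (0.41, 0.29 and 0.23). Each of these 5 calls was lost without any single one of several arrays. For TAC1 those were the 3 arrays of 0dpi and 1dpiT replicates 1 and 2 (adjusted p of 0.0654 to 0.0837), and for PTHLH 0dpi replicates 2 and 3 and the 3 1dpiT arrays (0.0574 to 0.104). The NPFF call was lost without any 0dpi array, 1dpi replicate 3 or 1dpiT replicates 1 or 3 (0.052 to 0.0929), and the NPPC call without any 0dpi array, 1dpi replicates 2 or 3 or 1dpiT replicates 2 or 3 (0.0574 to 0.151). CARTPT lost its call without 0dpi replicates 2 or 3, 1dpi replicates 1 or 3 or any 1dpiT array (0.0527 to 0.131).

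Of 5 further granin family genes, 4 were on the array, and 3 of them were higher in 1dpi than in 0dpi, beside 25.3% higher and 29.5% lower of all genes, with a median log2 difference of 0.51 and 0 lower, also at an unadjusted p below 0.05 in limma. With the arrays centred on the spike-ins these 3 calls were lost, with 0 higher, 1 lower and a median of -0.04. Of the 3 genes only VGF turned sign, to -0.13, which was not called. The 1 called lower was SCG5. Of all 20035 probe sets 1266 were higher and 16954 lower under that centring. CHGA, chromogranin A, had log2 signals of 7.33, 7.35 and 7.49 in 0dpi, 8.06, 8.10 and 8.07 in 1dpi and 7.70, 7.57 and 7.93 in 1dpiT. The 3 groups of CHGA were apart, with 1dpiT between the others. CHGA rose by 0.69 ± 0.09 (SE), CHGB, chromogranin B, by 0.60 ± 0.09, and VGF, a nerve growth factor-induced granin, by 0.42 ± 0.06. SCG5, the chaperone of prohormone convertase 2, had a log2 difference of 0.05 and was not called. Its signal was dim, with group means of 3.66 to 3.72 near the brightest negative control at 3.47. Beside these 4 genes SCG3 had 2.06 and SCG2 -0.25, and since both were chosen by these differences their place in the family is not a result.

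**Figure D3:**
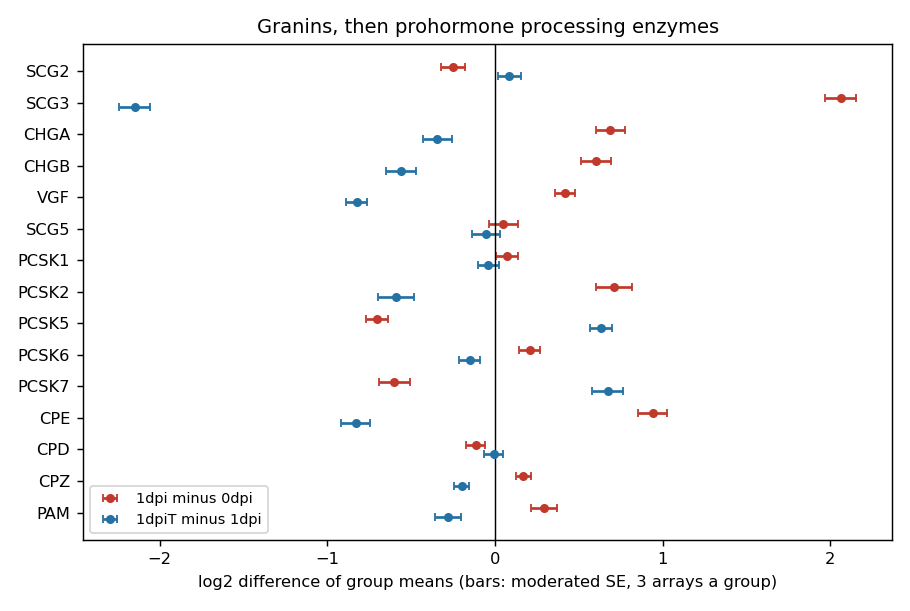
Log2 differences of the 6 measured granin genes (SCG2, SCG3, CHGA, CHGB, VGF and SCG5) and of 9 genes of prohormone processing; red is 1dpi minus 0dpi, blue is 1dpiT minus 1dpi, and bars are SE of the fit over 9 arrays. SCG3, chosen by these differences, is at 2.06 and -2.15, SCG2 at -0.25 and 0.09 and CPE at 0.94 and -0.83.

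In 1dpiT against 1dpi, CHGA, CHGB and VGF were lower, with log2 differences of -0.34 ± 0.09 (SE), -0.56 ± 0.09 and -0.83 ± 0.06 and a median of -0.45 over the 4 genes, beside 26.1% lower of all genes. Under the spike-in centring 2 were higher, CHGA at 0.30 and SCG5, and 1 was lower, VGF, with a median of 0.20. CHGB turned to 0.09 and was not called. Of all 20035 probe sets 17530 were then higher and 1122 lower. VGF went below its uninjured level, with 9.21, 9.17 and 9.14 in 0dpi against 8.86, 8.80 and 8.64 in 1dpiT, a log2 difference of -0.41 ± 0.06. CHGA was higher in 1dpiT than in 0dpi by 0.34 ± 0.09 with an adjusted p of 0.047. That CHGA call was lost without any array other than 1dpiT replicate 2, with adjusted p values of 0.0537 to 0.146. A second CHGA probe set, axo07069-r_at, had log2 differences of 0.95 in 1dpi against 0dpi, -1.06 in 1dpiT against 1dpi and -0.11 in 1dpiT against 0dpi. A second CHGB probe set, axo07617-r_at, had 1.14, -0.87 and 0.27. The second probe sets of these granins thus kept the direction of the first in both main comparisons, unlike those of NPY.

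Enzymes that turn precursors into peptides were read from a list of 12, of which 9 were measured. In 1dpi against 0dpi 5 were higher and 2 lower, or 55.6% and 22.2% beside 25.3% and 29.5% of all genes, with a median log2 difference of 0.17. Spike-in centring turned this to 1 higher and 7 lower with a median of -0.38. Of all 20035 probe sets 1266 were then higher and 16954 lower. CPE, the carboxypeptidase that trims peptide ends, rose by 0.94 ± 0.09 (SE) and PCSK2, prohormone convertase 2, by 0.71 ± 0.11. PAM, which amidates peptides, CPZ, a carboxypeptidase, and PCSK6, a convertase, rose by 0.29, 0.17 and 0.21. PCSK5 and PCSK7, convertases used in many tissues, were lower by -0.70 and -0.60, and PCSK1 and CPD did not pass the test. Leaving out replicate 1 of 0dpi (adjusted p of 0.061) or of 1dpi (0.0639) ended the PCSK6 call. Another PAM probe set, axo09765-f_at, was lower in 1dpi by -0.52, so the direction of PAM depends on the probe set. In 1dpiT against 1dpi, 2 were higher and 4 lower, beside 30.4% and 26.1% of all genes, with CPE at -0.83 and PCSK2 at -0.59. Under the spike-in centring PCSK2 turned to 0.056 there, and 7 of the list were higher and 0 lower. Of all 20035 probe sets 17530 were then higher and 1122 lower in that comparison. By limma 0 genes of this list were called between 1dpiT and 0dpi, beside 2.16% higher and 3.67% lower of all genes. The count was 0 also at an unadjusted p below 0.05 in that fit. With so few calls among all genes, a count of 0 among 9 genes shows little. CPE averaged 6.25 ± 0.19 (SD, n = 3) in 0dpi and 6.36 ± 0.03 in 1dpiT.

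The array held few receptors for the members' own peptides. MCHR2, a receptor of melanin-concentrating hormone, had log2 signals of 3.36, 3.25 and 3.28 in 0dpi, 3.52, 3.91 and 3.51 in 1dpi and 3.14, 3.26 and 3.15 in 1dpiT. Most of its values lay at or below the negative control level of 3.47, and only the 1dpi arrays were above it. MCHR2 rose in 1dpi by 0.35 ± 0.10 (SE, adjusted p of 0.0115) and had a log2 difference of -0.46 ± 0.10 in 1dpiT against 1dpi (adjusted p of 0.00225), and both directions turned under the spike-in centring, to -0.19 and 0.18. The NPY receptors NPY1R and NPY5R did not pass the test in either comparison, with log2 differences of 0.09 and 0.28 in 1dpi against 0dpi and -0.09 and -0.11 in 1dpiT against 1dpi. NPY1R group means of 3.40 to 3.49 were near the negative controls. Across the list of peptide receptors and peptidases, 24 of 55 were measured, with 8 higher and 0 lower in 1dpi (median 0.13, and 9 and 0 at an unadjusted p below 0.05 in limma). The 8 called higher are 33.3% of the list, not far from the 25.3% of all genes called higher, while 29.5% of all genes were lower. Of the 24 measured, 8 had a mean over the 9 arrays at or below the negative control level of 3.47. With ivermectin, 1dpiT against 1dpi, 1 of the 24 was higher and 9 were lower (median -0.10), or 4.17% and 37.5%, beside 30.4% and 26.1% of all genes. Spike-in centring turned these to 1 higher and 20 lower, and to 21 higher and 0 lower. Of all 20035 probe sets 1266 were then higher and 16954 lower in the first comparison, and 17530 and 1122 in the second.

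Of 24 measured dense-core vesicle genes out of 33, 3 were higher and 5 lower in 1dpi than in 0dpi, or 12.5% and 20.8% beside 25.3% and 29.5% of all genes, with a median log2 difference of 0.03, and under the spike-in centring 1 was higher and 22 lower. SYT4, a synaptotagmin of dense-core vesicles, rose by 1.32 ± 0.10 (SE), and RAB3C by 0.44. RAB3C was dim, with group means of 3.42 in 0dpi and 3.39 in 1dpiT, below the brightest negative control at 3.47, and 3.86 in 1dpi. RAB27A, a small GTPase that tethers secretory granules and melanosomes, was lower by -1.54 ± 0.07, and its effector SYTL2 by -0.51. The values for 1dpiT against 1dpi were -1.13 for SYT4, -0.47 for RAB3C, 1.80 for RAB27A and 0.50 for SYTL2. In that comparison 5 of the 24 dense-core vesicle genes were higher and 2 lower, or 20.8% and 8.33%, beside 30.4% and 26.1% of all genes. Of 24 genes of the synaptic vesicle and its fusion machinery, 7 were higher and 2 lower in 1dpi (median 0.13), or 29.2% and 8.33% beside 25.3% and 29.5% of all genes, and under the spike-in centring 0 were higher and 20 lower. In 1dpiT against 1dpi 2 of these genes were higher and 5 lower, or 8.33% and 20.8%, beside 30.4% and 26.1% of all genes. For both lists, the spike-in counts in 1dpi against 0dpi stand beside 1266 higher and 16954 lower of all 20035 probe sets.

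Of 35 listed transcription factors known to act on neuropeptide and granin genes, or to follow cell excitation, 25 were measured. In 1dpi against 0dpi 7 of them were higher and 6 lower, or 28% and 24%, beside 25.3% and 29.5% of all genes, with a median log2 difference of 0.06. For 1dpiT against 1dpi the counts were 3 higher and 9 lower (median -0.11), or 12% and 36%, beside 30.4% and 26.1% of all genes. Spike-in centring gave 3 higher and 19 lower in the first comparison and 20 higher and 4 lower in the second. Of all 20035 probe sets 1266 were then higher and 16954 lower in the first, and 17530 and 1122 in the second. REST, the repressor that keeps neuronal genes including granins silent in cells that are not neurons, was among those lower in 1dpi. Its log2 signals were 8.01, 8.08 and 8.13 in 0dpi, 7.70, 7.74 and 7.76 in 1dpi and 8.10, 8.11 and 8.12 in 1dpiT. The 1dpi arrays were below all others, and those of 0dpi and 1dpiT overlapped. REST was lower in 1dpi by -0.34 ± 0.05 (SE, adjusted p of 0.000181) and higher in 1dpiT against 1dpi by 0.38 ± 0.05 (adjusted p of 7.7e-05). INSM1, a transcription factor of neuroendocrine cells, was lower in 1dpi as well, with 4.45 to 4.71 in 0dpi, 3.51 to 3.69 in 1dpi and 4.52 to 4.82 in 1dpiT. The 1dpi values lay near the negative control level of 3.47. The log2 differences of INSM1 were -0.94 ± 0.10 (SE) in 1dpi against 0dpi and 1.04 ± 0.10 in 1dpiT against 1dpi. FOS, an immediate early gene of excited and stressed cells, rose by 2.65 ± 0.06 in 1dpi, and its log2 difference in 1dpiT against 1dpi was -3.68 ± 0.06. FOS and PENK both ended below the 0dpi level in 1dpiT, FOS by a log2 difference of -1.02 ± 0.06. Whether these regulators bear on the members was not tested.

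Markers of several tissues differed between the groups, some in the direction of PMCH and SCG3 and some against it. Beside the counts that follow, 25.3% of all genes were called higher and 29.5% lower in 1dpi against 0dpi, and 30.4% higher and 26.1% lower in 1dpiT against 1dpi. Under the spike-in centring 1266 of all 20035 probe sets were higher and 16954 lower in 1dpi against 0dpi. In 1dpiT against 1dpi 17530 were then higher and 1122 lower. Of 21 measured neuron markers out of 34, 14 were higher and 0 lower in 1dpi than in 0dpi (median 0.39, with the same counts at an unadjusted p below 0.05 in limma), and 1 was higher and 12 lower in 1dpiT against 1dpi (median -0.28). The mean log2 level of the neuron list was 6.03 to 6.10 in the 0dpi arrays, 6.53 to 6.58 in 1dpi and 6.12 to 6.19 in 1dpiT, and 1 of its 21 genes was at or below the negative control level. Spike-in centring gave 8 higher and 10 lower in 1dpi, with a median of -0.16, beside a median of -0.55 over all probe sets. In 1dpiT against 1dpi it gave 13 higher and 3 lower, with a median of 0.37, beside 0.65 over all probe sets. The sign of the neuron median thus depends on the scaling. Its place above the median of all probe sets could not change, since this centring adds 1 constant per array. GAP43, a growth cone protein, rose by 1.10, STMN4 by 1.07 and the microtubule protein gene MAPT by 1.02. Skeletal muscle markers moved further, with all 14 measured higher in 1dpi (median 1.41) and lower in 1dpiT (median -1.27). Their mean level was 10.71 to 10.74 in 0dpi, 12.22 to 12.24 in 1dpi and 10.62 to 10.65 in 1dpiT, and under the spike-in centring 10 were higher and 3 lower in 1dpi, and 3 higher and 7 lower in 1dpiT. Erythrocyte markers were also higher in 1dpi, 5 of 5, with ALAS2 at 1.62, and 3 higher and 2 lower under the spike-in centring. In 1dpiT against 1dpi all 5 were lower (median -0.96), and 2 were higher and 3 lower under that centring. Markers of ependymoglia, the stem-like cells around the canal, were higher in 6 and lower in 1 of 12 (median 0.27), which spike-in centring turned to 1 higher and 6 lower. In 1dpiT against 1dpi 3 of them were higher and 6 lower (median -0.16), and 9 higher and 0 lower with that centring. Leukocyte markers were higher in 3 and lower in 1 of 8 in 1dpi (median 0.01), and 2 higher and 5 lower under the spike-in centring. In 1dpiT against 1dpi 0 leukocyte markers were higher, also at an unadjusted p below 0.05 in limma, and 4 lower (median -0.22). With the spike-in centring 6 were higher and 1 lower there. Epidermis and epithelium markers went the other way, with 0 higher, also at an unadjusted p below 0.05 in limma, and 5 lower of 7 in 1dpi (median -0.34), and 4 higher and 1 lower in 1dpiT against 1dpi (median 0.29). Their mean level was 10.55 to 10.58 in 0dpi, 10.23 to 10.28 in 1dpi and 10.44 to 10.50 in 1dpiT. Of 3 measured oligodendrocyte and myelin markers, MAL and CNP were lower in 1dpi, with log2 differences of -2.05 and -1.01, and higher in 1dpiT against 1dpi, with 2.11 and 0.99. The third, the myelin basic protein gene MBP, had 0.67 and -0.68 and was no longer called under the spike-in centring. The part of these tissue markers in the values of PMCH, NPY and SCG3 was not tested.

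**Figure D4:**
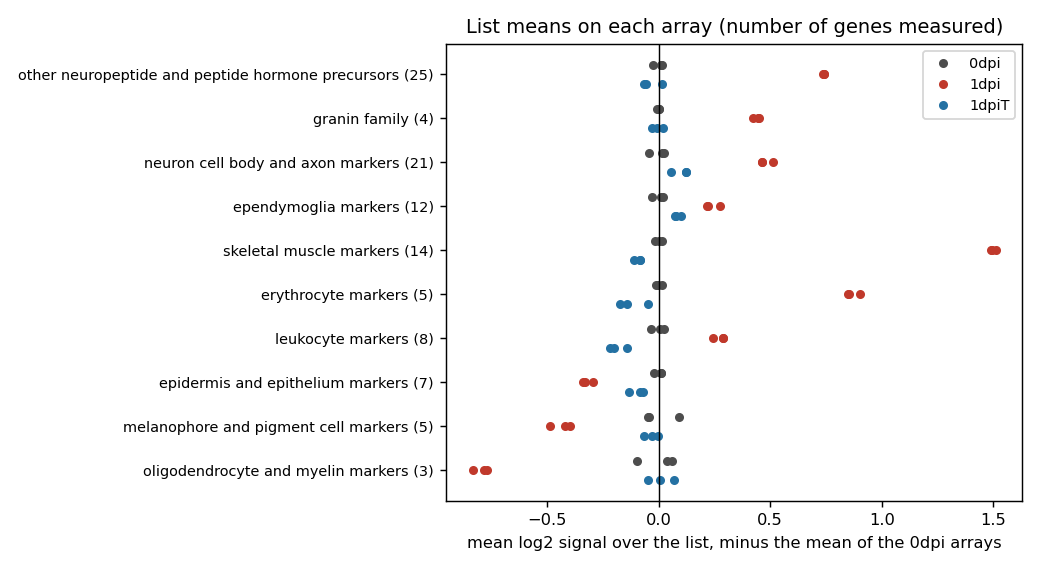
Mean log2 level of 10 gene lists in each array, relative to the mean of the 0dpi arrays; each dot is 1 array (0dpi grey, 1dpi red, 1dpiT blue). In the 1dpi arrays the muscle list stands highest, and the oligodendrocyte and myelin list stands lowest.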

How the data were processed

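RNA of 9 samples was measured on an Affymetrix axolotl array, from 150 ng of total RNA labelled with a 3′ kit. The table deposited by the authors holds 1 log2 signal per probe set and array, from RMA (background correction, quantile scaling and summary over probes) in Affymetrix Expression Console. Such scaling forces equal distributions, so a change in total messenger RNA is not seen. Software versions are not stated. The values ran from 2.65 to 14.6, with array medians of 5.84 to 5.89. Arrays carry no read depth, and their number limits the precision.

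The 45 control probe sets were left out, and 20035 were tested with no filter in R 4.3.3 with limma 3.58.1 (1 coefficient per group, all 9 arrays, 2-sided), adjusted by Benjamini-Hochberg over all. An adjusted p below 0.05 was a call. The methods name no model for these arrays. Since each array is a pool, p values reflect array-to-array spread rather than that of animals. The array's annotation gave 10951 probe sets 1 symbol (8639 genes), and the probe set with the highest mean stood for a gene. The fit was tested on simulated data. Arrays of 0dpi and 1dpiT correlated with an r of 0.996 to 0.997, those of 0dpi and 1dpi with 0.971 to 0.972, over probe sets.

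Members and lists were chosen with earlier results of these data known. Text names all member probe sets, all granins and processing enzymes, receptors of the members' peptides, REST and the 5 nearest genes per member. From each other list up to 4 called genes with the largest difference could be named, and not all of them were. Some genes of counts of 5 or fewer are named outside this rule. Alternatives were other centring, renormalization, a filter, averaged probe sets, trend and robust options, a replicate block, a fold rule and leaving out arrays.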

Additional observations from a re-analysis of the deposited data

Results flagged for a closer look

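The poly-A spike-in controls, which no comparison of the report tested, had a mean log2 signal that was 0.55 higher in 1dpi than in 0dpi, and 0.65 lower (a difference of -0.65) in 1dpiT than in 1dpi, over 24 probe sets. Hybridization controls, added after labelling, differed by 0.16 and -0.02. The cause was not tested.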

How the results depend on the processing

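Centring each array on the poly-A spike-ins moved the most results. The number of probe sets called went from 10597 to 18220 in 1dpi against 0dpi (1266 higher, 16954 lower), from 10828 to 18652 in 1dpiT against 1dpi (17530 higher, 1122 lower) and from 1122 to 1952 in 1dpiT against 0dpi (1609 higher, 343 lower). The share of higher calls went from 46.7% to 6.95%, from 53.7% to 94% and from 40.3% to 82.4%. Log2 differences in 1dpi against 0dpi became 3.26 for PMCH, 0.97 for NPY, -0.80 for SCG2 and 1.51 for SCG3. In 1dpiT against 1dpi they became -2.89, -1.23, 0.73 and -1.50, and in 1dpiT against 0dpi PMCH went to 0.37 and SCG2 to -0.062. Sign turns were sought only among named genes outside the ependymoglia, myelin, epidermis, leukocyte, erythrocyte and pigment cell marker lists. Called genes among them turned sign in 1dpi against 0dpi, to -0.38 for CPZ, -0.18 for DPP4, -0.19 for MCHR2, -0.080 for NAPB, -0.26 for PAM, -0.34 for PCSK6, -0.10 for RAB3C, -0.31 for RPH3A and -0.13 for VGF. In 1dpiT against 1dpi they turned to 0.062 for AMPH, 0.040 for AVPR1A, 0.41 for BSN, 0.30 for CHGA, 0.090 for CHGB, 0.45 for CPZ, 0.078 for DPP4, 0.18 for MCHR2, 0.32 for NAPB, 0.37 for PAM, 0.056 for PCSK2, 0.18 for RAB3C, 0.0040 for SLC17A6, 0.34 for SSTR2 and 0.36 for SYN3. By construction this adds 1 constant per array.

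Averaging the probe sets of a gene gave 0.67 and -0.92 for NPY and turned PAM to -0.11 and 0.038 in 1dpi against 0dpi and 1dpiT against 1dpi. An unadjusted p below 0.05 with a 2-fold difference called 1426 (723 higher, 703 lower), 1563 (787 and 776) and 32 (7 and 25) probe sets in the 3 comparisons. Leaving out the dimmest 50% of probe sets, which removed NPY and SCG3, gave 3203 higher in 1dpi against 0dpi and 3257 lower in 1dpiT against 1dpi, and 80 list members called in place of 122, with fewer genes tested. Trend and robust options called 1694 (777 higher) in 1dpiT against 0dpi, and the cause was not tested. Replicate numbers did not pair the arrays, since same-numbered arrays had deviations correlated at -0.22 to 0.23 and 1 of 9 such pairs was over 0.1. With the replicate number as a block, 291 probe sets in place of 452 were called higher in 1dpiT against 0dpi.

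Without 1 array at a time, probe sets called were 9703 to 10575, 9962 to 10828 and 640 to 1112 in 1dpi against 0dpi, 1dpiT against 1dpi and 1dpiT against 0dpi. In the last, 218 to 458 were higher and 422 to 654 lower, and 22 to 33 list members were called. PMCH stayed at 3.74 to 3.87 and -3.60 to -3.47, NPY at 1.38 to 1.61 and -1.98 to -1.83, SCG3 at 1.98 to 2.14 and -2.23 to -2.07, and SCG2 at -0.32 to -0.19 and 0.03 to 0.15. Median centring and renormalization moved no member's log2 difference by more than its SD within groups. Trend and robust options and the block, which is balanced over the groups, cannot change these differences.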

Other observations

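The peptide made from PMCH acts on pigment cells in fish, and pigment cell markers were read beside it. Of 5 measured, 1 was higher and 3 lower in 1dpi than in 0dpi, beside 25.3% higher and 29.5% lower of all genes. In 1dpiT against 1dpi, 4 were higher and 1 lower, beside 30.4% and 26.1% of all genes. TYRP1, an enzyme of melanin synthesis, had log2 differences of -1.64 and 1.64, DCT of -0.75 and 0.61 and TYR of -0.34 and 0.33. KIT, a receptor of pigment and other cells, went the other way, with 0.75 and -0.78. The mean level of the list was 5.63 to 5.77 in 0dpi, 5.19 to 5.28 in 1dpi and 5.61 to 5.67 in 1dpiT. With the arrays centred on the spike-ins, 0 were higher and 4 lower in 1dpi, and 4 higher and 0 lower in 1dpiT against 1dpi. Of all 20035 probe sets 1266 were then higher and 16954 lower in the first comparison, and 17530 and 1122 in the second.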
